A study of Mus musculus with 24 samples.

Results

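The potassium channel genes of the mouse hippocampus were taken as every gene symbol made of Kcn, a subfamily letter or letters and a closing number, so that pore-forming subunits and the auxiliary subunits named after them were included. Of 92 such symbols in the deposited counts, 81 had at least 10 counts in at least 3 of the 22 libraries that passed quality control, and these 81 were the members. They are part of 19595 genes, of 49568 symbols, that met the same count rule. The 11 symbols that did not were Kcna7, Kcna10, Kcne1, Kcnj1, Kcnj15, Kcnk7, Kcnk15, Kcnk16, Kcnk18, Kcnmb3 and Kcnv2. Between 0.506% and 0.607% of the counts on genes of each of the 22 libraries fell on the members (median 0.564%).

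Hippocampal polyA RNA of experimentally naive male mice on a C57-Bl/6J background, labelled as 12 weeks old, was sequenced as 24 libraries, 6 in each of 4 groups. WTSH mice were wild type in standard housing, and WTEE mice were wild type and reared from before birth in an enriched environment of large cages with a running wheel, toys and larger social groups. KDSH and KDEE mice lived in the same respective housing and were homozygous for a knock-in point mutation that removes the kinase activity of MSK1, the nuclear kinase that Rps6ka5 encodes and that acts downstream of neurotrophin signals. Gene counts cannot show a point mutation, so that they do not check the genotype labels. The study reports comparing the aligned reads of the libraries at the MSK1 gene to look for the mutation. The wild-type and mutant mice were kept as separate lines, so that genotype and line cannot be told apart. The sources do not say whether libraries of a group came from different litters or cages, and the p-values measure the spread between these libraries.

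Potassium channels let potassium leave or enter cells and so set the resting potential, repolarise the action potential and limit firing. Voltage-gated (Kv), inwardly rectifying, two-pore and calcium- or sodium-activated families serve these roles in neurons, and astrocytes use inward rectifiers to take up potassium that neurons release. The epithelium of the choroid plexus, which secretes cerebrospinal fluid in the ventricles next to the hippocampus, is known for a small set of its own. Kcne2 encodes an auxiliary subunit at the apical side of that epithelium, where it partners the pore-forming subunits of Kcnq1 and Kcna3, and Kcnj13 encodes an inward rectifier of the same membrane.

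The main comparisons use the 17 libraries that the study kept. WTSH libraries 10, 11, 13, 14 and 15, WTEE libraries 16, 17 and 33A, KDSH libraries 1, 3, 4, 5 and 6 and KDEE libraries 7, 8, 32A and 36A were among them. WTSH library 12, WTEE libraries 31B and 35A, KDSH library 2 and KDEE library 9 had been removed by the study for poor correlation within their group, and they were added back in a second fit of 22 libraries. That choice used the expression values of these same libraries and narrows the spread within groups. The p-values and the lack of overlap over the 17 libraries do not account for it. WTEE library 33B and KDEE library 34B had failed quality control. Total counts were between 13003876 and 54292242 in the 17 libraries and between 8911999 and 56752074 in the 22, where a floor of 3 counts stands for 0.0529 to 0.337 CPM (counts per 1000000 counts on genes, scaled by the TMM method over the 22 libraries). The floor covers counting error only. The SE printed with a fold change was derived from the F statistic of the quasi-likelihood test, so that it includes the spread between libraries. All 8 hippocampal marker genes chosen were expressed, with a summed level of 841 to 1009 CPM in 21 libraries and of 700 CPM in KDSH library 5, which stood apart by it. Among the kept libraries this sum was lower in WTEE (892 to 905 CPM) than in WTSH (944 to 1009 CPM), without overlap. The 6 interneuron markers also summed to less in WTEE (743 to 767 CPM) than in WTSH (804 to 894 CPM). By the mean log2 CPM of these 6 genes the groups overlapped slightly, at 6.181 to 6.274 in WTEE and 6.271 to 6.437 in WTSH. Both sums overlapped between KDEE and KDSH. The part of these differences in the levels of members was not tested. Library 12 stood apart by its thalamus markers, whose 6 genes summed to 305 CPM against 49.9 to 104 CPM in the other 21 libraries. Library 14 had the highest level of the 6 striatum markers, 164 CPM against 62.3 to 112 CPM in the other 21.

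The regions just before the start of Kcne2 and Kcnj13 are shown because these were the 2 members called in both genotypes. Kcne2 (ENSMUSG00000039672) lies on the plus strand at chr16:92292389-92298129 of GRCm38, and Kcnj13 (ENSMUSG00000079436) on the minus strand at chr1:87386363-87394729. Each stretch holds 250 bases before and 50 bases from the annotated start, from RefSeq on GRCm38.p6, 5′ to 3′ on the strand of the gene. Kcne2 has a further RefSeq start inside the gene, which is not shown. Capitals mark matches, on either strand, to TAATC, the core that homeodomain factors of the Otx kind bind and which reads GATTA on the other strand. They also mark matches to TATAAA, a common core promoter element, which reads TTTATA when found reversed.
Kcne2, chr16:92292139-92292438, plus strand: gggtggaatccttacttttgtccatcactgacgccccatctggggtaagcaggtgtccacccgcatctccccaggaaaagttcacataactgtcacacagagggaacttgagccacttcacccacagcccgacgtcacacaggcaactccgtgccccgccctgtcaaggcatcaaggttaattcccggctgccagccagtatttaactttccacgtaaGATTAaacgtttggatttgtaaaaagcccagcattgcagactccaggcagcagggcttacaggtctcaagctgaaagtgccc
Kcnj13, chr1:87394680-87394979, minus strand: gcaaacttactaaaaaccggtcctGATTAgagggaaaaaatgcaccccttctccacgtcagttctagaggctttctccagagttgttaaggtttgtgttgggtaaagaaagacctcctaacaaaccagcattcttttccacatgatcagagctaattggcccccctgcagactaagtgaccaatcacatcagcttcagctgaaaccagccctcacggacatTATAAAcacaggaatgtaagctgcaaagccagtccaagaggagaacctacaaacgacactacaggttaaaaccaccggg
Both stretches held 1 match to TAATC, and that of Kcnj13 also held TATAAA, beginning 29 bases before the start. A match to TAATC was present in 22.002% of 32851 RefSeq promoters of the same length and in 17 of the 83 promoters listed for 58 of the members. TATAAA was present in 13.6% of all promoters and in 4 of those 83. The longer TAATCC, which reads GGATTA when found reversed, was in neither stretch, and 7.06% of all promoters held it. These matches are descriptions of the letters and were not tested as binding sites.

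Kcne2 was at 26.0, 20.3 and 29.4 CPM in WTEE libraries 16, 17 and 33A. In WTSH libraries 10, 11, 13, 14 and 15 it was at 0.169, 5.52, 0.519, 0.481 and 0.101 CPM. Every kept WTEE library therefore lay above every kept WTSH library, and library 11 was the only WTSH library of the 5 above 1 CPM. In KDEE libraries 7, 8, 32A and 36A the level was 7.96, 12.9, 17.5 and 30.999 CPM. In KDSH libraries 1, 3, 4, 5 and 6 it was 0.619, 0.911, 0.708, 0.0542 and 0.281 CPM, which in library 5 was a single count. The groups of the mutant did not overlap either. Over these 17 libraries Kcne2 was higher in the enriched groups by a log2 fold change of 4.40 in WT (SE 0.60, adjusted p = 3.7e-05 by edgeR's quasi-likelihood test with Benjamini-Hochberg adjustment over 18701 genes) and of 4.90 in KD (SE 0.62, adjusted p = 2.9e-05).

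Kcnj13 followed the same libraries at a lower level. It was at 9.60, 9.33 and 11.9 CPM in WTEE libraries 16, 17 and 33A and at 0.271, 1.26, 0.618, 0.257 and 0.135 CPM in WTSH libraries 10, 11, 13, 14 and 15. In KDEE libraries 7, 8, 32A and 36A it was at 1.47, 4.07, 5.30 and 11.9 CPM, and in KDSH libraries 1, 3, 4, 5 and 6 at 0.138, 0.353, 0.242, 0.163 and 0.0562 CPM. Again no enriched library overlapped a standard one among the 17, and the KDEE libraries spread over the wider range. The log2 fold change was 4.39 in WT (SE 0.47, edgeR adjusted p = 2.3e-06) and 4.78 in KD (SE 0.51, edgeR adjusted p = 5.8e-06). Exons of Kcnj13 overlap those of Gigyf2 on the opposite strand over 49.1% of their length, and reads there were left uncounted for both genes since the counting ignored strand, so that the level of Kcnj13 is a lower figure than that of its whole transcript.

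The 5 removed libraries went against the housing pattern of the kept ones for both genes. Enriched WTEE libraries 31B and 35A had 0.297 and 0.289 CPM of Kcne2 and 0.264 and 0.307 CPM of Kcnj13, and enriched KDEE library 9 had 0.667 and 0.111 CPM. Standard WTSH library 12 had 8.58 CPM of Kcne2 and 3.42 CPM of Kcnj13, and standard KDSH library 2 had 17.8 and 6.14 CPM. Enriched and standard libraries overlapped in both genotypes once these were included. Over 22 libraries Kcne2 had a log2 fold change of 2.66 in WT (SE 1.13, edgeR adjusted p = 0.49) and of 2.02 in KD (SE 1.07, edgeR adjusted p = 0.55), and Kcnj13 one of 2.73 in WT (SE 1.01, edgeR adjusted p = 0.43) and of 1.94 in KD (SE 0.96, edgeR adjusted p = 0.53). Neither gene passed the test there.

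**Figure D1:**
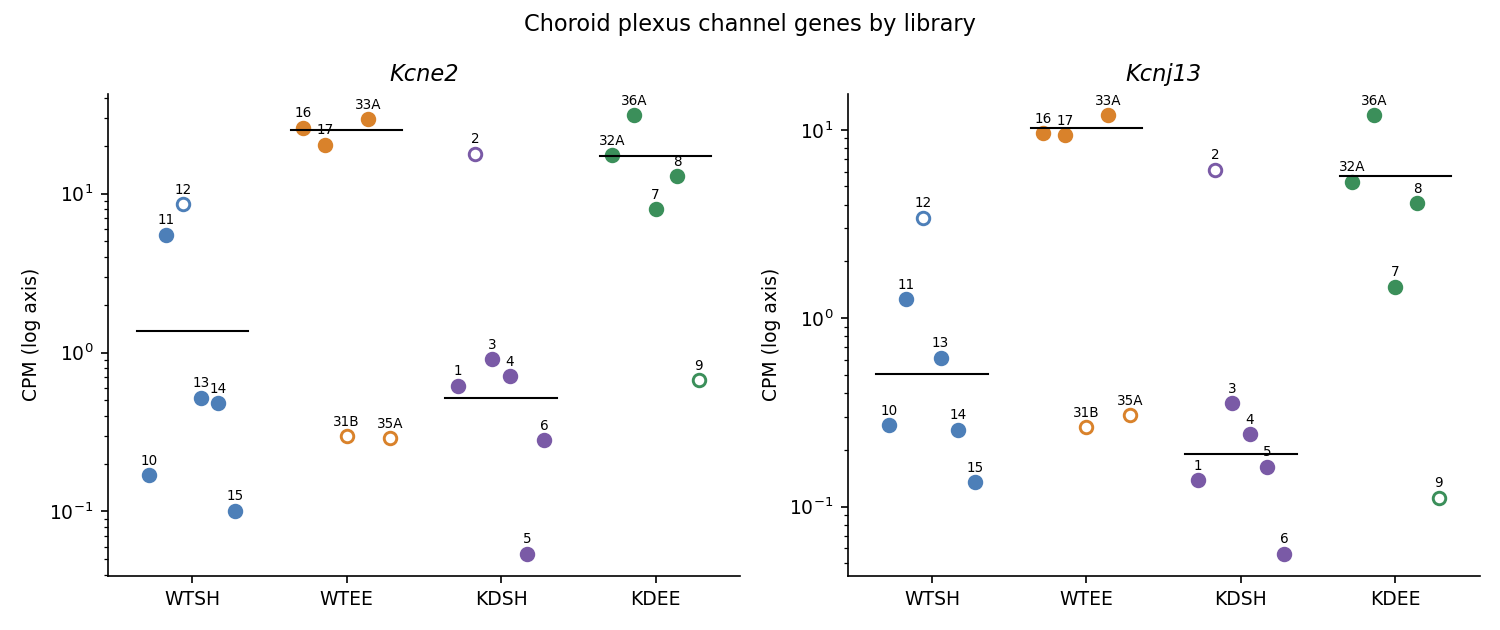
Level of Kcne2 and Kcnj13 in each library, in CPM on a log axis, by group, with filled points for the 17 kept libraries, open points for the 5 removed ones, library codes above the points and a line at the mean of the kept libraries. The kept WTEE libraries sit between 20.3 and 29.4 CPM of Kcne2, and the removed WTEE libraries 31B and 35A sit at 0.297 and 0.289 CPM, among the WTSH libraries.

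Markers of the choroid plexus moved with both genes from library to library. The 12 markers (Ttr, Folr1, Kl, Clic6, Otx2, Aqp1, Enpp2, F5, Mfrp, Slc4a5, Sostdc1 and Tmem72) were all above 0 in all 22 libraries. Their summed level was between 240 and 1349 CPM in the 5 kept WTSH libraries, between 5965 and 8062 CPM in the 3 WTEE, between 223 and 440 CPM in the 5 KDSH and between 1671 and 8363 CPM in the 4 KDEE. It was 263 and 231 CPM in removed WTEE libraries 31B and 35A, 467 CPM in KDEE library 9, 2785 CPM in WTSH library 12 and 4363 CPM in KDSH library 2. The 10 libraries with the most of these markers were the 10 with at least 100 counts of Kcne2. In a fit with the score of 8 of these markers (the mean log2 CPM of Folr1, Kl, Clic6, Otx2, Slc4a5, Tmem72, Aqp1 and F5) as a covariate, the housing difference of Kcne2 over 17 libraries was −0.05 on the log2 scale in WT (SE 0.48, edgeR adjusted p = 1.0) and 0.54 in KD (SE 0.52, edgeR adjusted p = 1.0). For Kcnj13 it was 0.29 in WT (SE 0.57) and 0.97 in KD (SE 0.55), and with 22 libraries the 4 values were between −0.23 and 0.09. The score separates the housing groups of the 17 libraries without overlap, so that marker level and housing cannot be told apart within them. Markers of the meninges were also higher in the kept enriched libraries, where 6 genes summed to 110 to 148 CPM in WTEE against 77.7 to 100.1 CPM in WTSH and to 85.3 to 124 CPM in KDEE against 54.2 to 101 CPM in KDSH. The 5 ependyma markers summed to 37.7 to 40.6 CPM in WTEE and 24.8 to 32.4 CPM in WTSH, with overlapping ranges of the sum in KD. By the mean log2 CPM of these 5 genes, every kept KDEE library (1.79 to 2.03) was below every kept KDSH library (2.09 to 2.52). In WT that mean was higher with enrichment, at 2.53 to 2.60 in WTEE and 2.14 to 2.51 in WTSH. The part of any of these cell types in the levels of other members was not tested beyond the covariate. In bulk tissue, more cells of a type and more RNA per cell cannot be told apart either.

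**Figure D2:**
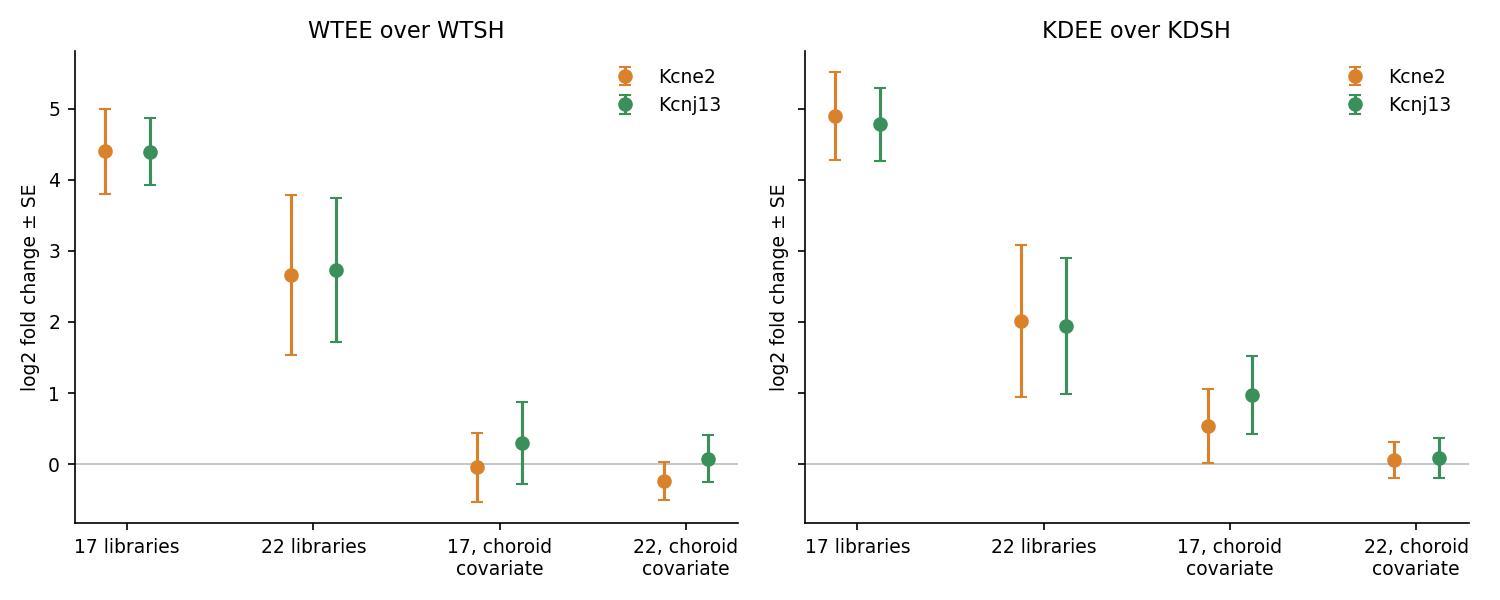
log2 fold change (± SE) of Kcne2 and Kcnj13 with enrichment in WT (left) and KD (right), in fits of 17 or 22 libraries and in the same fits with the choroid marker score as a covariate. The values fall from 4.39 to 4.90 with 17 libraries to between 1.94 and 2.73 with 22 libraries and lie between −0.23 and 0.97 with the covariate.

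The counts of Kcne2 and Kcnj13 were also set against each other and against the markers. Among the 10 libraries with at least 100 counts of Kcne2, from all 4 groups, Kcne2 had between 2.17 and 5.42 counts for each count of Kcnj13 (median 2.81), while Kcne2 itself spanned 5.52 to 30.999 CPM. Its counts were between 0.517% and 0.875% of those of Ttr, the transthyretin gene and the most abundant choroid transcript of the list. Against Folr1, the choroidal folate receptor, they varied more, from 50.4% in library 12 to 129% in library 7. In the 7 libraries with at least 100 counts of Kcnj13, its counts were between 0.197% and 0.255% of those of Ttr and between 21.5% and 29.6% of those of Folr1. These libraries included the standard-housed library 2. Over all 22 libraries, where the lowest counts were 1 of each gene, the ranges were wider, at 0.333 to 6.0 counts of Kcne2 for each count of Kcnj13. Kcne2 then had 6.67% to 129% of the counts of Folr1 and 0.295% to 1.57% of those of Ttr. For Kcnj13 these were 3.03% to 39.1% of the counts of Folr1 and 0.0668% to 1.70% of those of Ttr.

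The partners of KCNE2 did not show its range. Kcnq1, which encodes a voltage-gated subunit of epithelia, was low. It was at 0.644, 0.739, 0.569, 0.705 and 0.708 CPM in WTSH libraries 10, 11, 13, 14 and 15 and at 1.25, 1.28 and 1.08 CPM in WTEE libraries 16, 17 and 33A. These groups did not overlap, and the log2 fold change was 0.84 (SE 0.33, edgeR adjusted p = 0.23). In KD it was 0.64 (SE 0.32, edgeR adjusted p = 0.47), with 0.172 to 0.857 CPM in the 5 KDSH and 0.618 to 1.04 CPM in the 4 KDEE libraries. A fit of only the WTEE and WTSH libraries called Kcnq1, and no other fit did. Kcna3, a Kv subunit also used by neurons and microglia, was at 8.30 ± 0.63 CPM in WTSH (SD, n = 5), 7.82 ± 2.37 in WTEE (SD, n = 3), 6.56 ± 2.10 in KDSH (SD, n = 5) and 7.60 ± 1.79 in KDEE (SD, n = 4). Its housing differences were within that spread, at −0.07 in WT (SE 0.23) and 0.18 in KD (SE 0.21) on the log2 scale.

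Of the other epithelial channel genes listed, Kcne3 and Kcnk5 were members and both were near the floor. Kcnk5, which encodes a two-pore channel of epithelia, had a log2 fold change with enrichment of 0.84 in WT (SE 0.28, edgeR adjusted p = 0.13) and of 0.55 in KD (SE 0.27, edgeR adjusted p = 0.47), from levels of 0.304 to 1.78 CPM over the 22 libraries. Removed KDEE library 9, which was poor in choroid markers, held the highest value. Kcne3, an auxiliary subunit, was between 0 and 0.541 CPM and had log2 fold changes of −0.15 in WT (SE 0.45) and −0.09 in KD (SE 0.43). With the choroid score as a covariate over 17 libraries the sign for Kcne3 turned, to 2.38 in WT (SE 0.999) and 1.95 in KD (SE 0.82), and Kcnk5 moved to 1.85 (SE 0.68) and 1.38 (SE 0.58). These 4 values had unadjusted p between 0.012 and 0.028 and edgeR adjusted p of 1.0. With the covariate over 22 libraries they were −0.12 and 0.15 for Kcne3 and 0.52 and 0.63 for Kcnk5. Neither gene passed the test in these fits.

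Levels between genes were compared as CPM per kilobase of annotated exon, averaged over the 22 libraries. By that measure the 81 members ranged from 0.0840 for Kcnn4, a calcium-activated channel of immune and vascular cells, to 129 for Kcnab2, which encodes a cytoplasmic beta subunit of Kv channels. The median was 5.30, 27 members reached 10 and 16 stayed under 1. Among the other high members were Kcnip2 (53.0), which encodes a calcium-binding subunit of A-type Kv channels, Kcnj10 (39.7), the inward rectifier of astrocytes, and Kcnj4 (36.8), an inward rectifier of forebrain neurons. The 2 choroid channels ranked 43 (Kcne2, 4.68) and 55 (Kcnj13, 2.41) by this mean, which for them is set by the libraries rich in choroid markers.

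The neuronal members accounted for most of the summed level. The 22 neuronal Kv members made up 30.8% of it, the 8 neuronal auxiliary subunits 27.7%, the 12 Kcnq and Kcnh members 12.9% and the 9 neuronal inward rectifiers 12.3%. Smaller shares fell to the 7 glial and vascular members (5.64%), the 7 neuronal two-pore members (5.19%) and the 8 calcium- and sodium-activated members (3.87%). The choroid channels made up 0.778%, the KCNE2 partners 0.458% and the 2 epithelial members 0.0407%. High among the Kv members were Kcnc4 (25.9), which encodes a rapidly inactivating channel, and Kcnd2 (24.4), the A-type channel of dendrites. Kcnh3 (19.3) and Kcnq3 (17.5), the latter a subunit of M-current channels, were high among theirs. The neuronal inward rectifiers were led by Kcnj4 (36.8), Kcnj9 (30.2) and Kcnj3 (22.5), the latter pair being G-protein-gated, and the neuronal two-pore members by Kcnk1 (26.0), Kcnk2 (7.62) and Kcnk12 (6.00). Kcnt1 (8.80), which encodes a sodium-activated channel, Kcnn2 (6.56), a small-conductance calcium-activated channel, and Kcnma1 (6.46), the large-conductance one, led the last of these lists.

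**Figure D3:**
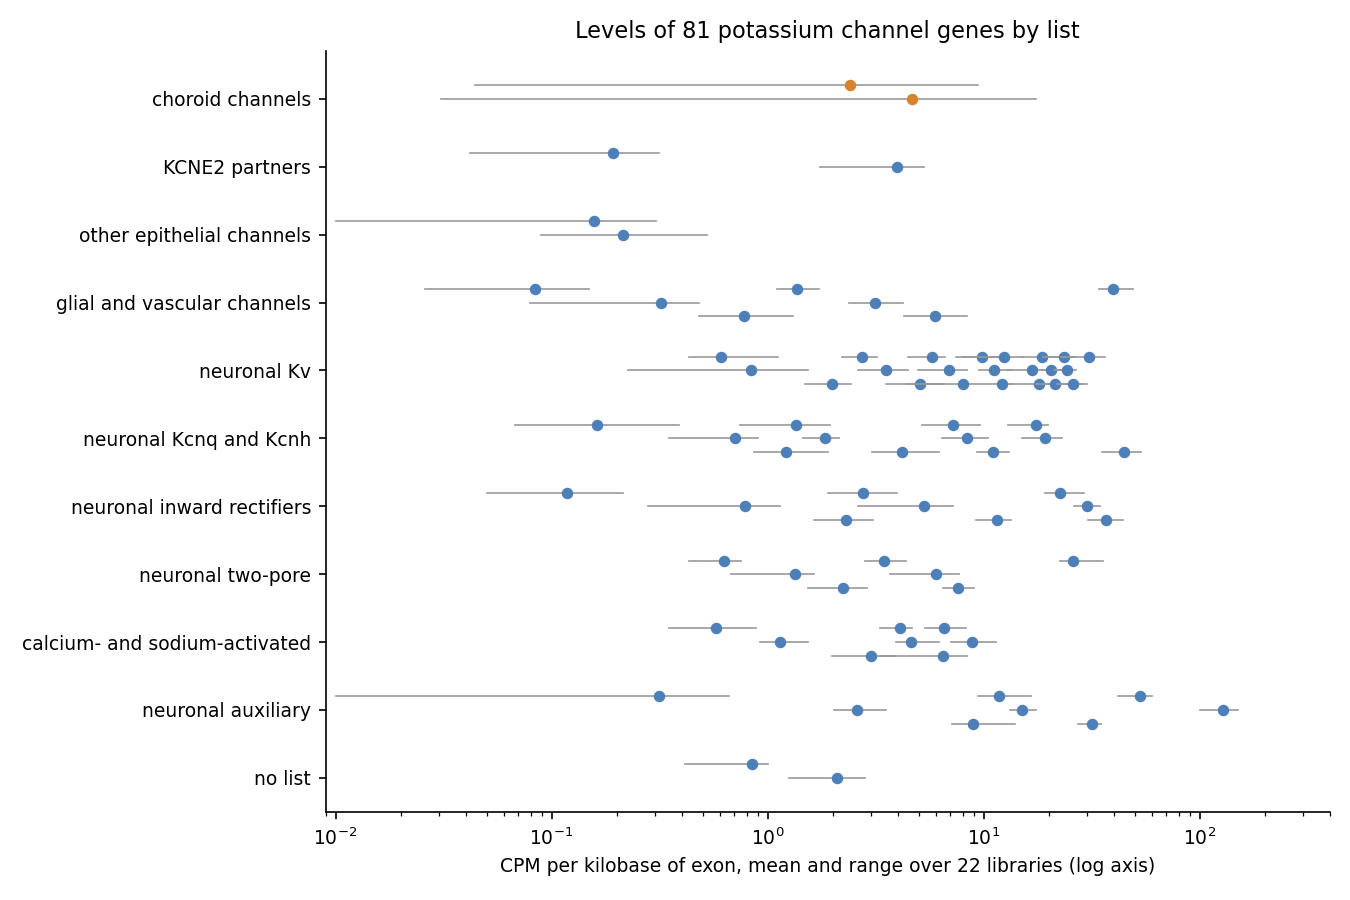
Level of each of the 81 members in CPM per kilobase of exon on a log axis, by list, with the mean over 22 libraries as a point and the range over libraries as a line. Lines that reach 0 are drawn to 0.01, and Kcne2 and Kcnj13 (orange) span a wider fold range than any other member above 0 in every library.

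From library to library, most members were steady. The coefficient of variation over the 22 libraries had a median of 13.5% over all members, and was 134% for Kcnj13, 128% for Kcne2 and 47.9% for the next, Kcne4, a sparse auxiliary subunit. The steadiest was Kcnip3, a calcium-binding subunit of A-type channels, at 5.73%, followed by Kcnd2 at 6.40%, Kcnf1, a modulatory Kv subunit, at 7.20%, and Kcnd3, a close relative of Kcnd2, at 7.22%. Kcne2 was 572 times as high in library 36A as in library 5, which held 1 count of it, and Kcnj13 was 212 times as high in library 36A as in library 6, which held 2. KDSH library 1 held the lowest value of 16 members, among them Kcnma1 and Kcna3, and KDSH library 5 the highest of 14 and the lowest of 13. Both are kept libraries of the same group.

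Between WTEE and WTSH 3 members were called over the 17 libraries. Kcne2 and Kcnj13 were higher in WTEE, Kcnn3 was lower, and 664 of 18701 genes were called (3.55%). Between KDEE and KDSH 2 members were called, Kcne2 and Kcnj13, both higher in KDEE, and 325 of 18701 genes were called (1.74%). At an unadjusted p under 0.05 there were 15 members in WT, 6 higher and 9 lower, where 13.7% of all genes were that low, and 8 in KD, 5 higher and 3 lower, where 11.3% were. The share of members was thus close to that of all genes. Over the 81 members the log2 fold changes had medians of −0.05 (WT) and 0.02 (KD), beside 0.00 for all genes tested in both. Without the 2 choroid channels, the other 79 members lay between −0.52 and 0.84 in WT and between −0.35 and 0.65 in KD.

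**Figure D4:**
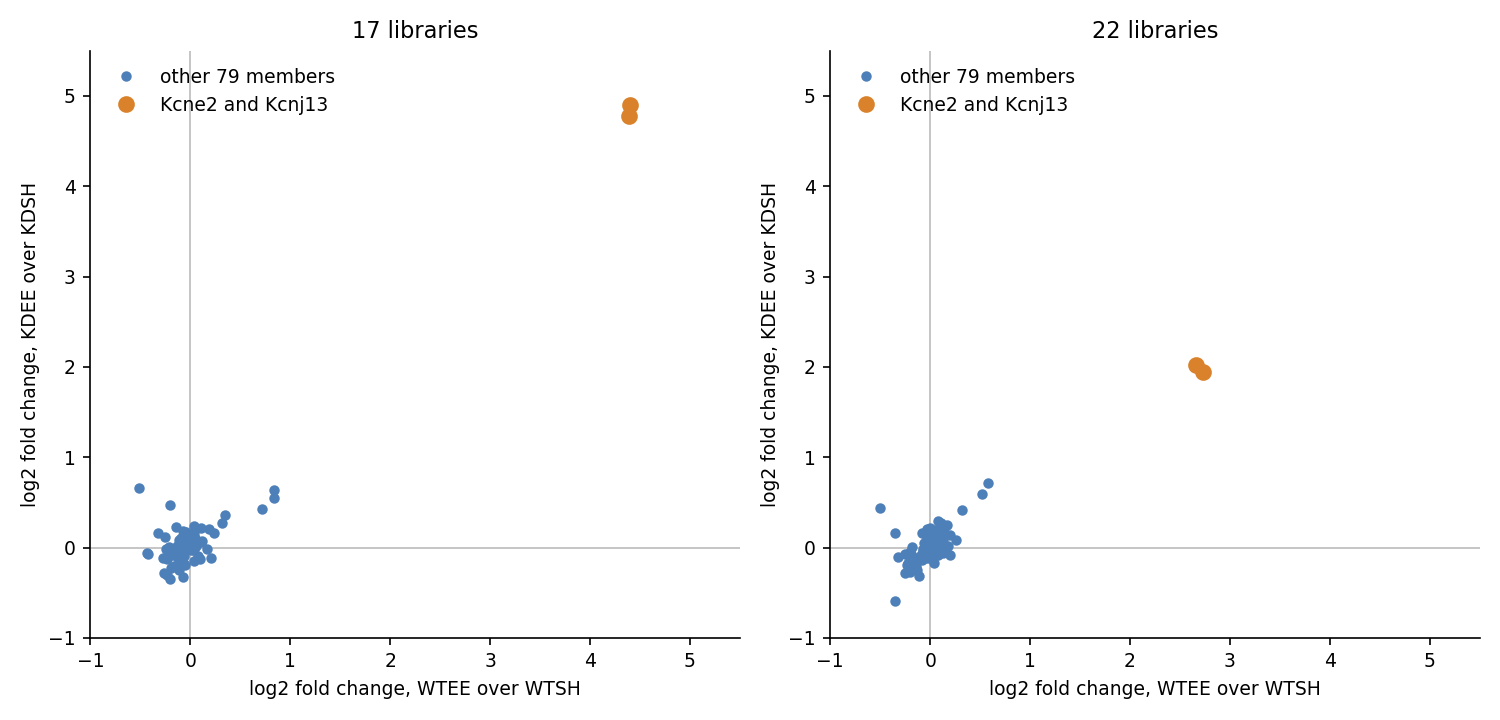
log2 fold change with enrichment of each of the 81 members in WT (horizontal axis) and in KD (vertical axis), over 17 libraries (left) and 22 libraries (right). Kcne2 and Kcnj13 (orange) lie near 4.4 and 4.8 on the left and between 1.94 and 2.73 on the right, and the other 79 members stay within 1 log2 unit of 0.

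Over 22 libraries no gene at all was called in WT (0.0% of 18482) or in KD (0.0%), nor in the other 3 comparisons (0.0% in each), by the same edgeR test. DESeq2 called 23 genes in WT and 2 in KD over these libraries, none of them members. An unadjusted p under 0.05 was found for 8 members in WT (8.65% of all genes) and 10 in KD (9.63%). In the 17 libraries, 5 members were higher without overlap in every WTEE library than in every WTSH library (8.10% of all genes) and 5 were lower (4.32%). Higher were Kcne2, Kcnj13, Kcnh2, Kcnq1 and Kcng4, a modulatory Kv subunit, and lower were Kcnn3, Kcnq5, Kcnj16, Kcnd2 and Kcnc2. In KD, Kcne2, Kcnj13, Kcnh2 and Kcnj5 were higher without overlap (2.13% of all genes) and Kcnip4 was lower (0.984%). With 22 libraries no member was free of overlap in either direction, where 0.46% of all genes were higher and 0.73% lower in WT and 0.233% and 0.314% in KD.

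Kcnn3, which encodes a small-conductance calcium-activated channel that slows firing after a spike, was the 1 neuronal member called. It was at 26.2, 20.7 and 29.7 CPM in WTEE libraries 16, 17 and 33A. In WTSH libraries 10, 11, 13, 14 and 15 it was at 34.05, 31.8, 31.3, 37.4 and 37.7 CPM. The groups did not overlap, and library 17 was the lowest of all. The log2 fold change in WT was −0.43 (SE 0.11, edgeR adjusted p = 0.020). In KD the groups overlapped, at 31.3 ± 3.17 CPM in KDSH (SD, n = 5) and 29.7 ± 1.54 CPM in KDEE (SD, n = 4), with a log2 fold change of −0.07 (SE 0.10, edgeR adjusted p = 0.82). The difference between the genotypes was itself −0.35 (SE 0.14), with an edgeR adjusted p of 0.88. Removed WTEE libraries 31B and 35A had 32.4 and 40.7 CPM, the second of these the highest of all 22 libraries, and over 22 libraries the WT log2 fold change was −0.19 (SE 0.11, edgeR adjusted p = 0.66). Leaving out library 14, 16 or 17 from the 17 also ended the call, with edgeR adjusted p of 0.053, 0.064 and 0.22, and library 14 is the one with the most striatum markers, whose part was not tested. With the choroid score over 17 libraries the WT value was −0.45 (SE 0.23, edgeR adjusted p = 1.0). Its relatives Kcnn1 and Kcnn2 were not called in any comparison.

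Kcnh2, which encodes the pore of the rapid delayed rectifier known from the heart, passed the adjusted p in both genotypes but not the fold threshold of 0.38 on the log2 scale. It was at 31.6, 37.7, 31.8, 30.5 and 34.95 CPM in WTSH libraries 10, 11, 13, 14 and 15 and at 40.2, 42.6 and 43.9 CPM in WTEE libraries 16, 17 and 33A. In KDSH libraries 1, 3, 4, 5 and 6 it was at 27.3, 33.8, 28.3, 25.0 and 32.7 CPM, and in KDEE libraries 7, 8, 32A and 36A at 36.2, 38.3, 39.0 and 37.3 CPM. Enriched libraries were above standard ones without overlap in both genotypes, by a log2 fold change of 0.34 in WT (SE 0.09, edgeR adjusted p = 0.029) and 0.35 in KD (SE 0.08, edgeR adjusted p = 0.025). The removed libraries sorted as they did for Kcne2. WTSH library 12 had 46.4 CPM, the highest of all 22 in the library with the most thalamus markers, and KDSH library 2 had 35.8 CPM, while WTEE libraries 31B and 35A had 34.2 and 30.2 CPM and KDEE library 9 had 28.8 CPM. Over 22 libraries the log2 fold change was 0.11 in WT (SE 0.11, edgeR adjusted p = 0.86) and 0.24 in KD (SE 0.12, edgeR adjusted p = 0.52), and with the choroid score over 17 libraries it was 0.08 (SE 0.18) and 0.13 (SE 0.16).

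By the pattern of log2 CPM over the 22 libraries, the members most like Kcne2 were Kcnj13 (Pearson r = 0.95), Kcnh2 (0.79), Kcnk1 (0.64), Kcnq1 (0.57) and Kcnk4 (0.47). Those most like Kcnj13 were Kcne2 (0.95), Kcnh2 (0.81), Kcnk1 (0.63), Kcnq1 (0.55) and Kcne4 (0.46). Other members ran the opposite way. The most negative r with Kcne2 were those of Kcnd2 (−0.69), Kcnq3 (−0.63), Kcns3 (−0.62), Kcnq5 (−0.58) and Kcnn3 (−0.58). With Kcnj13 they were those of Kcnd2 (−0.74), Kcns3 (−0.65), Kcnq3 (−0.60), Kcnab1 (−0.58) and Kcnip4 (−0.58). After the group means were taken out, Kcne2 and Kcnj13 still had r = 0.95, and Kcnh2 had 0.84 with Kcne2 and 0.79 with Kcnj13. These are descriptions over libraries that share depth, scaling and composition and that fall into choroid-rich and choroid-poor ones, and no test was made of them. Kcnk1, a two-pore channel of neurons and astrocytes, was at 80.2 CPM in library 36A and between 50.3 and 63.5 CPM in the other 21.

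The other neuronal and glial members that came nearest to the thresholds had smaller differences. Kcnq5, a subunit of M-current channels, was at 92.3 ± 6.57 CPM in WTSH (SD, n = 5) and 76.5 ± 5.502 CPM in WTEE (SD, n = 3), and the log2 fold change of −0.27 (SE 0.08, edgeR adjusted p = 0.048) was under the fold threshold. In KD it was −0.11 (SE 0.07, edgeR adjusted p = 0.59). Kcnj16, an inward rectifier subunit that pairs with Kcnj10 in astrocytes, was at 27.0 ± 4.15 CPM in WTSH (SD, n = 5) and 19.99 ± 2.76 CPM in WTEE (SD, n = 3). Its log2 fold change was −0.43 (SE 0.12, edgeR adjusted p = 0.055), DESeq2 called it, and over 22 libraries it was −0.32 (SE 0.10, edgeR adjusted p = 0.40). In KD it was −0.06 (SE 0.11). With the choroid score over 17 libraries both signs turned, to 0.07 and 0.37. Kcnd2 followed in WT at −0.19 (SE 0.06, edgeR adjusted p = 0.069), Kcns3, a modulatory Kv subunit, in KD at −0.31 (SE 0.10, edgeR adjusted p = 0.19) and Kcnip4 in KD at −0.29 (SE 0.11, edgeR adjusted p = 0.28).

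**Figure D5:**
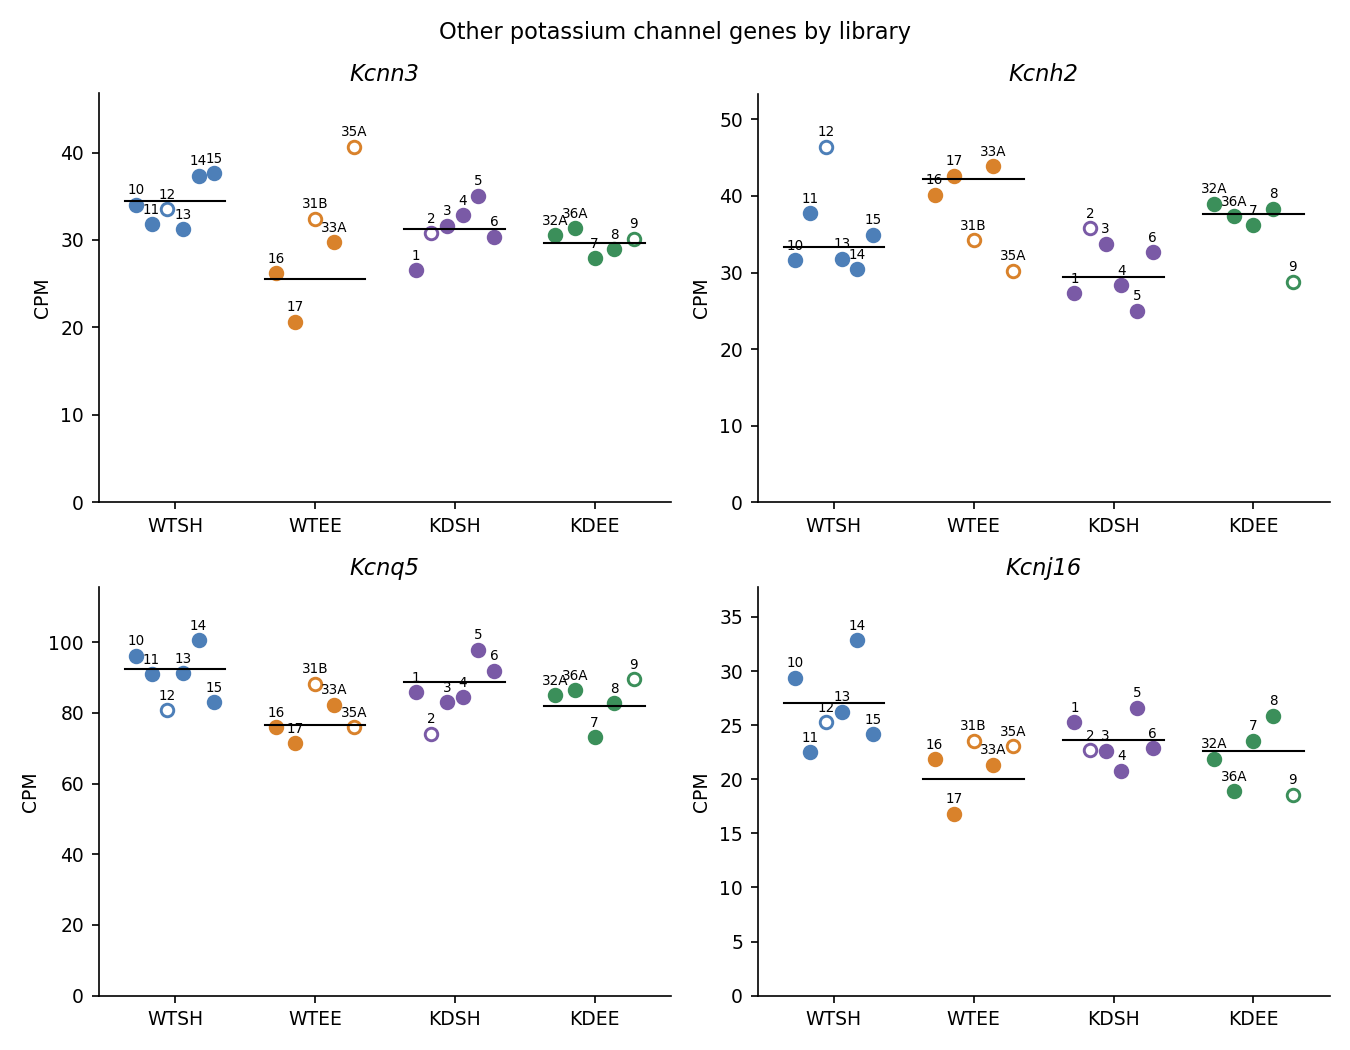
Level of Kcnn3, Kcnh2, Kcnq5 and Kcnj16 in each library, in CPM from 0, by group, with filled points for the 17 kept libraries, open points for the 5 removed ones and a line at the mean of the kept libraries. WTEE library 17 is the lowest for Kcnn3 at 20.7 CPM and removed WTEE library 35A the highest at 40.7 CPM.

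By list, calls other than Kcnn3 were confined to the choroid channels over the 17 libraries. Of the 22 neuronal Kv members 0 were called in either genotype, and the median of their log2 fold changes was −0.02 (WT) and 0.02 (KD). The 12 Kcnq and Kcnh members had medians of −0.09 and 0.02, the 9 neuronal inward rectifiers −0.07 and 0.08, the 7 neuronal two-pore members 0.04 and 0.06, the 8 calcium- and sodium-activated members −0.11 and 0.08, the 8 auxiliary subunits −0.06 and −0.07 and the 7 glial and vascular members −0.05 and −0.06. Each was beside 0.00 for all genes tested. Of the 66 neuronal members of these lists, 26 were higher and 40 lower in WT over 17 libraries and 34 higher and 32 lower over 22. In KD, 38 were higher and 28 lower over 17 libraries and 44 higher and 22 lower over 22. With the choroid score over 17 libraries, 18 were higher and 48 lower in WT and 21 higher and 45 lower in KD, and over 22 libraries 37 and 29 in WT and 53 and 13 in KD. The balance thus turned with the choice of libraries in WT and with the covariate over 17 libraries in KD. In these fits the median log2 fold change of all genes tested was between −0.0024 and 0.0083. Past the fold threshold, whatever the p, were 3 of the 66 in WT and 3 in KD over 17 libraries, and 19 and 10 with the covariate. The score separates the housing groups of these 17 libraries without overlap, and the share of all genes past the threshold is not given. The rise with the covariate is therefore not read as a trait of the neuronal members.

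Genes that work beside potassium channels, but carry other symbols, were counted in the same fits. The 23 such genes tested included the Hcn channels, the sodium pump subunits and the cation-chloride cotransporters. Over the 17 libraries 3 were called higher and 0 lower in WTEE than in WTSH, where 3.55% of all genes were called. In KDEE 1 was called higher and 0 lower than in KDSH, where 1.74% of all genes were called. Those in WT were Slc12a2 (0.53, SE 0.13, edgeR adjusted p = 0.018), Slc12a4 (0.76, SE 0.14, edgeR adjusted p = 0.0011) and Slc12a7 (0.73, SE 0.19, edgeR adjusted p = 0.031), which encode cotransporters of chloride with potassium that epithelia and other cells use. In KD it was Slc12a4 (0.51, SE 0.13, edgeR adjusted p = 0.044). Slc12a4 was at 19.3 ± 1.72 CPM in WTSH (SD, n = 5) and 32.6 ± 2.66 in WTEE (SD, n = 3). None of the 23 was called over 22 libraries, or with the choroid score as a covariate. Slc12a5, the neuronal cotransporter, was not called in any comparison.

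No member was called between the genotypes in either housing. Between WTSH and KDSH 0 of 18701 genes were called by edgeR (0.0%) and 3 by DESeq2, none of them members, and 4 members had an unadjusted p under 0.05, as did 4.95% of all genes. Among these were Kcng1, Kcnj5 and Kcnh2, each higher in WTSH, with log2 fold changes of 0.30 (SE 0.11), 0.89 (SE 0.34) and 0.17 (SE 0.08), and an edgeR adjusted p of 0.88 for each. Kcng1, a modulatory Kv subunit, was at 33.6 CPM in KDSH library 5 and between 52.7 and 58.3 CPM in the other 4 kept KDSH libraries, beside 58.2 to 68.6 CPM in the 5 WTSH libraries. Kcnma1 was higher in all 5 WTSH libraries (113 to 127 CPM) than in all 5 KDSH libraries (56.6 to 110 CPM), by 0.29 on the log2 scale (SE 0.14, edgeR adjusted p = 0.88). The lowest of these was again library 1. Kcnma1 was the 1 member without overlap between these groups, where 0.54% of all genes were higher and 0.481% lower in WTSH without overlap. The low value of Kcng1 was from library 5, the one lowest in hippocampal markers, and without it the log2 fold change was 0.19 (edgeR adjusted p = 0.94).

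Between WTEE and KDEE 1 gene, not a member, was called (0.00535%). A single member had an unadjusted p under 0.05, beside 6.40% of all genes. It was Kcnmb4, the neuronal beta subunit of the large-conductance channel, at 1.25, 1.16 and 2.01 CPM in WTEE libraries 16, 17 and 33A and at 1.47, 2.36, 2.94 and 2.18 CPM in KDEE libraries 7, 8, 32A and 36A. The groups overlapped, and the log2 fold change was −0.61 (SE 0.23, edgeR adjusted p = 0.68), and −0.57 over 22 libraries (SE 0.18). Exons of Kcnmb4 overlap antisense genes over 31.5% of their length. Kcnj13 was 0.81 higher in WTEE (SE 0.40, edgeR adjusted p = 0.79) and Kcne2 0.52 higher, differences within the spread of the KDEE libraries. Kcnh2, Kcnmb1 and Kcnq1 were higher in every WTEE than in every KDEE library (4.04% of all genes) and Kcnj12 was lower (2.36%). Kcnmb1, another beta subunit of the large-conductance channel, was at 1.45 to 1.59 CPM in WTEE and 0.618 to 1.34 CPM in KDEE, and Kcnj12, an inward rectifier, at 6.00 to 6.34 and 6.46 to 6.90 CPM.

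The interaction of genotype and housing, which asks whether the housing difference of a gene was unlike in WT and KD, gave no call among 18701 genes by edgeR (0.0%). Unadjusted p under 0.05 were found for 4 members, beside 5.51% of all genes. These were Kcnn3 (−0.35, SE 0.14), Kcnj16 (−0.37, SE 0.17), Kcnj5 (−1.17, SE 0.54) and Kcng1 (−0.37, SE 0.18), where a negative value means a smaller or more negative change in WT, and each had an edgeR adjusted p of 0.88. Kcnj5, a G-protein-gated inward rectifier, was between 0.236 and 1.0008 CPM over all 22 libraries, close to the floor. DESeq2 called 2 genes for the interaction, neither a member. For the choroid channels the interaction was −0.49 for Kcne2 and −0.39 for Kcnj13 over 17 libraries and 0.64 and 0.79 over 22, so that its sign turned with the choice of libraries. Leaving out WTSH library 11 from the 17 also turned it, to 1.33 for Kcne2 and 0.13 for Kcnj13, and leaving out KDEE library 36A turned it for Kcnj13, to 0.24.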

How the data were processed

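After trimming by Skewer, the authors used STAR (v2.5) for alignment to GRCm38 and HTSeq, set to ignore strand, for counting uniquely aligned fragments per symbol, and deposited these raw counts for each of the 24 libraries. Reads in exons shared by genes of both strands were left out by that counting, and near-identical copies cannot be separated. A table of normalized values for the series was not used here.

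Counts were analysed in R 4.3.3 with edgeR 4.0.16 (filterByExpr by group, TMM, quasi-likelihood test on 4 group means) over the 17 libraries that the study kept. The study itself used the Wald test of DESeq2, with the thresholds given next. A call required an adjusted p (Benjamini-Hochberg over all genes tested) of at most 0.05 and an absolute log2 fold change of at least 0.38, a 1.3-fold change. The alternatives, among them 22 libraries, a choroid covariate, DESeq2 1.42.0 and each library left out, are given in the closing section. The 22 libraries with DESeq2 or without libraries 12 and 14 were added after seeing the data. The CPM printed for single libraries were scaled over 22 libraries. Exon lengths and positions came from GENCODE on GRCm38, which held all 81 members. The fits were tested on simulated data, and plotting used Python 3.11.15 (matplotlib 3.10.9).

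The members, lists and tests were chosen with earlier results of these data known. Members named were Kcne2, Kcnj13 and the partners of KCNE2, every member called, the up to 3 highest by level per list and family, the up to 5 with the lowest unadjusted p per comparison and for the interaction, and the 5 most like Kcne2 or Kcnj13. The report describes those of them that its results turn on. Outside that rule, Kcnn4, Kcnj12, the members listed as too low to test and the 3 Slc12a genes were named after their values were seen. The values of some members are not reported here.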

Additional observations from a re-analysis of the deposited data

Results flagged for a closer look

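Among the members named by the rule, 186 groups of 4 or 5 kept libraries were searched for a library far from the rest of its group, and 16 were found. Chance alone gives about 1 in 20. In WTSH, library 11 was high for Kcne2 (5.52 CPM), library 14 was high for Kcnj10 (239 CPM) and library 15 was low for Kcnv1 (40.2 CPM). In KDSH, library 1 was low for Kcna1 (63.0 CPM), Kcnh1 (46.9 CPM), Kcnma1 (56.6 CPM) and Kcnq3 (231 CPM) and high for Kcne4 (0.929 CPM). KDSH library 5 was high for Kcna2 (343 CPM), Kcnb2 (36.8 CPM) and Kcnj10 (248 CPM) and low for Kcng1 (33.6 CPM) and Kcnip2 (146 CPM). In KDEE, library 32A was high for Kcng1 (65.4 CPM), and library 36A was high for Kcng2 (26.6 CPM) and Kcnk1 (80.2 CPM). Libraries 1 and 5 thus held 10 of the 16.

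WTEE library 33B, which failed quality control and entered no comparison but that of all 24 libraries, held 119 counts of Kcne2 (8.96 CPM when scaled over all 24) and 56 of Kcnj13 (4.22 CPM). On that scale the highest of the kept WTSH libraries was at 5.52 and 1.26 CPM. Scaled over 22 libraries, removed standard-housed libraries 12 and 2 had 8.58 and 17.8 CPM of Kcne2 and 3.42 and 6.14 CPM of Kcnj13. The removed enriched libraries 31B, 35A and 9 had 0.289 to 0.667 CPM of Kcne2 and 0.111 to 0.307 CPM of Kcnj13.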

How the results depend on the processing

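For the 5 counts of called members, the alternatives kept the count within 1.5 times in 135 cases and moved it in 14. All 14 moves were in the 2 housing comparisons. In the other 3 comparisons the count stayed at 0, so that many of the kept cases set 0 against 0. A change between 3 and 2 counted as kept, although in WT it lost Kcnn3. In WT the 3 calls became 0 with 22 libraries, all 24, the choroid covariate over 17 or 22 libraries, DESeq2 over 22 libraries, and 22 libraries without 12 and 14, and 5 by the adjusted p alone. In KD the 2 calls became 0 under the same 6 alternatives that gave 0 in WT. Leaving out 1 library at a time gave 2 to 5 calls in WT, with 5 without WTSH library 11 (Kcnh2 and Kcnj16 added) and 2 without 14, 16 or 17 (Kcnn3 lost), and 2 to 3 in KD, with 3 without KDSH library 3 or 6 (Kcnh2 added). It gave 0 to 0 in the other 3 comparisons. Signs of the member fold changes traced turned as follows. With the choroid covariate over 17 libraries they turned for Kcne2 in WT (−0.047) and between WTEE and KDEE (−0.29), Kcnip4 (0.10), Kcnq1 (−0.031) and Kcna3 (−0.083) in KD, Kcne3 in WT (2.4) and KD (1.9) and Kcnj16 in WT (0.071) and KD (0.37). With it over 22 they turned for Kcne2 in WT (−0.23) and between WTEE and KDEE (−0.32), Kcnh2 (−0.046) and Kcna3 (0.026) in WT, and Kcne3 (0.15), Kcnn3 (0.062) and Kcnq5 (0.035) in KD. Between WTEE and KDEE, Kcnn3 turned with 22 (0.012), 24 (0.024), DESeq2 over 22 (0.013) and without 12 and 14 (0.012), and Kcne2 with 24 (−0.031). Kcna3 turned in WT with 22 (0.0026), 24 (0.077) and DESeq2 over 22 (0.0021) and without WTEE library 17. Without the libraries with lettered codes, Kcna3 (−0.033), Kcne3 (0.31) and Kcnj16 (0.082) turned in KD and Kcne3 (0.20) in WT. Kcne3 turned without 33A in WT (0.19) and without 32A or 36A in KD (0.066 and 0.020), and Kcnj16 without 36A in KD (0.021). The interaction turned for Kcne2 with 22 (0.64), 24 (0.55), DESeq2 over 22 (0.52), 22 without 12 and 14 (1.4), no lettered libraries (0.084) and without 11 (1.3), and for Kcnj13 likewise (0.79, 0.72, 0.70, 1.6, 0.47 and 0.13) and without 36A (0.24). Leaving out 1 library gave −0.31 to 0.13 for Kcna3 in WT, −0.57 to 0.19 and −0.33 to 0.066 for Kcne3 in WT and KD, −0.14 to 0.021 for Kcnj16 in KD, and −0.80 to 1.3 and −0.79 to 0.24 for the interactions of Kcne2 and Kcnj13. The cause was not tested. No paired analysis was possible because the library codes are not shared between groups. Every library with a lettered code was from an enriched group, so that code type and housing cannot be fully told apart. Libraries 33A and 33B share a number within WTEE, and the sources do not say what the letters stand for. Counts of Kcne2 and Kcnj13 were 1 to 49 in the libraries whose choroid markers summed to at most 467 CPM, so that their folds against these are imprecise.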
